A study of Rattus norvegicus with 12 samples.

Results

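The genes described here are 49 cell cycle and mitosis genes, named by 50 symbols because Cdk1 may carry its older symbol Cdc2. They were found by the array's own gene name among the gene spots, and 48 of the 49 were found, of 21914 named genes on the array. The list divides into 18 S phase genes, 29 mitotic genes, and Stmn1 and Hmgb2, which belong to neither. Cenpe was not found by that name, so its level is not analysed here, and it enters only the count of promoters. Of the 48 genes, 40 were measured well enough to test, of 10451 tested genes in all. The 40 comprise 14 S phase genes, 24 mitotic genes and both others.

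The study asked how transcripts of the rat colon respond to more dietary protein. Male Wistar rats of 180 to 200 g were fed a normal protein diet or a high protein diet for 6 weeks. Total RNA labelled as colonic epithelium was hybridised in a single colour (Cy3) to Agilent whole rat genome arrays, with 6 arrays a diet. The labels do not say that the replicates came from separate animals, so the p-values measure the spread between these samples, which may be technical.

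The colonic epithelium is renewed from stem and progenitor cells that divide in the lower part of the crypts. In S phase these cells copy their DNA. The copying needs the MCM helicase, the sliding clamp Pcna and enzymes that supply nucleotides. In mitosis the kinase Cdk1, bound to cyclins A and B, drives chromosome condensation and spindle assembly, and Cdc20 with the anaphase-promoting complex ends it. Many S phase genes are known targets of E2F factors. Many mitotic genes carry a CCAAT box and a CHR element, the cell cycle genes homology region bound by the DREAM and MuvB complexes.

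Promoter sequence was matched by symbol in a RefSeq table of the GRCr8 assembly, from 250 bases before to 50 bases after each gene's start. It was found for 41 genes, 15 of the S phase and 24 of the mitotic group. Both strands were searched for CCAAT, for the CHR letters TTTGAA, and for the E2F letters TTCCCGC or TTTGGCG. The 4 promoters printed here were chosen from genes whose values are given in full and that hold the letters searched. Each run is the 130 bases before the start, 5′ to 3′ on the gene's strand. Capitals mark a CCAAT box (CCAAT, or ATTGG on the other strand), a CHR (TTTGAA or TTCAAA) or an E2F site.
Cdk1, chr20:19265163-19265292, plus strand: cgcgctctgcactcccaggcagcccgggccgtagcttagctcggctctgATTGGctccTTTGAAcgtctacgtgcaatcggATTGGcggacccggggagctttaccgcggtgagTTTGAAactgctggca
Top2a, chr10:84473094-84473223, minus strand: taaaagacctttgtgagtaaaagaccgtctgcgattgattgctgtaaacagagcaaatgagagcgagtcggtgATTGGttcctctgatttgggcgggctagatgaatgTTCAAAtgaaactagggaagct
Tyms, chr9:120776084-120776213, minus strand: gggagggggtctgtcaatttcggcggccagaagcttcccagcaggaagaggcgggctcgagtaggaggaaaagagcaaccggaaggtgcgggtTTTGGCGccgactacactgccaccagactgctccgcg
Cdk2, chr7:1721879-1722008, minus strand: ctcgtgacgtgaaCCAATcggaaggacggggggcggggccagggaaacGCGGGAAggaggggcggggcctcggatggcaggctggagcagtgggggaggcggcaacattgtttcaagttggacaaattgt
The Cdk1 and Top2a promoters hold CCAAT and CHR letters near each other and no E2F letters. Those of Tyms and Cdk2 hold E2F letters and no CHR. Over the group, 20 of 24 mitotic promoters held CCAAT and 15 held the CHR, and 14 held both. An E2F match was present in 1 of the 24. Of 15 S phase promoters, 9 held an E2F match, 9 held CCAAT, 1 held the CHR and 0 held CCAAT with the CHR. Among all 19005 coding promoters in the table, CCAAT was present in 38.4%, the CHR in 17.0%, an E2F match in 7.29% and CCAAT with the CHR in 7.04%. The CHR and CCAAT letters can overlap by 1 base, and they did in the Mki67 and Cdca8 promoters. These matches describe letters in a window and were not tested as sites.

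All levels given here are normalised log2 intensities, so 1 unit is a 2-fold difference in intensity. A diet difference is high protein minus normal protein, and a level is not comparable between genes because each has its own probe. A gene was called only where the limma p, adjusted over all 10451 genes by the Benjamini-Hochberg method, was under 0.05. The share of gene spots with a good flag ran from 42.67% to 55.86% over the arrays, and the number of arrays limits the precision. The pan-epithelial markers Epcam, Cdh1, Krt8, Krt18 and Krt19 were among the 10 of 10 that were tested, with a mean level of 11.46 to 12.35 over arrays. Of 13 smooth muscle markers 12 were tested, with a mean level of 10.39 to 11.57. Muscle transcripts were thus measured in these samples beside epithelial ones. Of 19 lymphocyte markers 5 were tested, and Cd79a and Ms4a1 of B cells were not among them. In such bulk samples, fewer dividing cells and less of a transcript per cell cannot be told apart.

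No S phase or mitotic gene differed between the diets past the test. Of 14 S phase genes, 0 were called, and of 24 mitotic genes, 0 were called. Over all 10451 genes limma called 0 (0%), with a smallest adjusted p of 0.68 and, at an unadjusted p under 0.05, 383 genes higher and 311 lower on high protein. The smallest adjusted p of any of the 40 cell cycle genes was 0.73. The 6 arrays of each diet overlapped for all 40 genes, where 0.383% of all tested genes did not overlap. For 35 of the 40 genes the 95% interval stayed inside 1.5-fold either way, and for all 40 inside 2-fold. Over all tested genes 84.7% lay within 1.5-fold. A diet effect larger than 2-fold on the level of any of these transcripts is outside those intervals. Many smaller effects lie inside them, so the intervals do not show equal levels.

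Differences of the S phase genes lay mostly just under 0. Of the 14, 13 were below 0 and 1 above, with a median of -0.11 and a range of -0.15 to 0.002. Of the 24 mitotic genes, 17 were below and 7 above, with a median of -0.09 and a range of -0.33 (Nusap1, -0.20 with the median of its spots) to 0.19. Among all tested genes 48.5% were below 0, with a median of 0.005. With arrays scaled to their median instead of quantile normalised, the medians were -0.002 for S phase and -0.01 for mitotic genes, where that of all genes was 0.10. Genes of each group varied together over the arrays, so their signs are not separate observations. The mean level of the S phase genes was 7.99 ± 0.17 (SD, n = 6) in the normal protein arrays and 7.90 ± 0.24 (SD, n = 6) in the high protein arrays. The mean level of the mitotic genes was 7.82 ± 0.33 (SD, n = 6) and 7.75 ± 0.21 (SD, n = 6). Both differences are smaller than the spread between arrays. They also did not keep a direction across slides. Within slide 1 the median difference was -0.16 for S phase and -0.23 for mitotic genes, and within slide 3 it was -0.24 and -0.27. Within slide 2 it was 0.11 and 0.26. Each slide held 2 arrays of each diet.

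**Figure D1:**
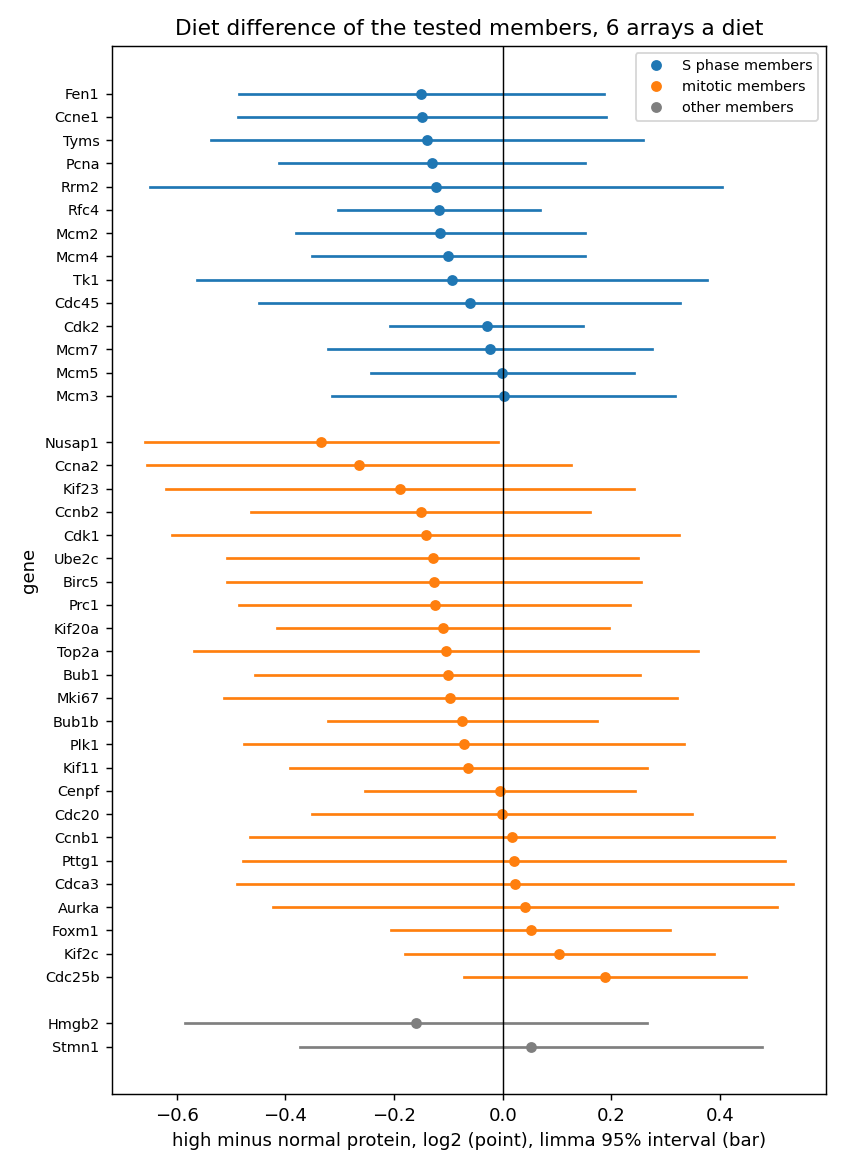
Diet difference of each tested cell cycle gene as high minus normal protein in log2 units (point) with its limma 95% interval (bar), from 6 arrays a diet. Of 14 S phase genes 13 lie below 0, and of 40 intervals only that of Nusap1 leaves out 0, which with the median of its spots runs from -0.62 to 0.21.

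Among genes of DNA replication, the proliferating cell nuclear antigen Pcna, the clamp that holds polymerases on DNA, ran from 9.11 through a median of 9.48 to 9.77 on normal protein. It ran from 9.02 through 9.39 to 9.60 on high protein. High protein replicates 1 and 5 and normal protein replicate 6 were the low arrays and normal protein replicate 5 the high one, so both ranges span nearly the same levels. The Pcna difference was -0.13 ± 0.13 (SE). Mcm2, a subunit of the replicative helicase, ran from 7.17 through 7.54 to 7.71 on normal and from 7.06 through 7.36 to 7.61 on high protein. Its difference of -0.11 ± 0.12 (SE) was under its standard error. Rfc4, of the complex that loads Pcna, had the smallest p of the S phase genes. It ran from 6.68 through 6.84 to 7.10 on normal and from 6.62 through 6.75 to 6.89 on high protein. The Rfc4 difference was -0.12 ± 0.09 (SE), with an unadjusted limma p of 0.20. Fen1, the nuclease that trims Okazaki fragments, ran from 8.52 through 9.12 to 9.31 and from 8.51 through 8.85 to 9.39. High protein replicate 2 was the highest array for Fen1 and high protein replicate 5 the lowest, so the high protein arrays covered the whole range. Its difference was -0.15 ± 0.16 (SE). The helicase subunits Mcm3, Mcm4, Mcm5 and Mcm7 lay between -0.10 and 0.002 and Cdc45, which joins the helicase, at -0.06.

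Genes of nucleotide supply spread more between arrays. Rrm2, the small subunit of ribonucleotide reductase, ran from 9.31 through 10.07 to 10.65 on normal protein and from 9.54 through 9.73 to 10.55 on high protein. Normal protein replicates 1 and 2 and high protein replicate 2 were high, and normal protein replicate 6 and high protein replicate 1 low. The Rrm2 difference was -0.12 ± 0.24 (SE). Tk1, thymidine kinase, ran from 7.28 through 7.44 to 8.41 and from 6.97 through 7.53 to 8.04. Its highest arrays were normal protein replicate 1 and high protein replicate 2, and its difference was -0.09 ± 0.22 (SE). Tyms, thymidylate synthase, ran from 7.18 through 7.27 to 7.56 on normal and from 6.72 through 7.06 to 7.77 on high protein. High protein replicates 3 and 4 lay above every normal array for Tyms, replicates 1, 2 and 5 below and replicate 6 among them, with a difference of -0.14 ± 0.18 (SE). Among S phase kinases and cyclins, Cdk2 ran from 6.86 through 7.05 to 7.13 and from 6.74 through 7.03 to 7.16, with a difference of -0.03 ± 0.08 (SE). Its partner Ccne1, cyclin E, differed by -0.15 ± 0.16 (SE).

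Of the mitotic regulators, Cdk1 ran from 8.78 through 9.52 to 10.07 on normal protein and from 8.98 through 9.35 to 9.82 on high protein. Normal protein replicates 1 and 2 were the highest of all arrays and normal protein replicate 6 the lowest, so the normal diet held both ends of the range. The Cdk1 difference was -0.14 ± 0.22 (SE). Its partner Ccnb1, cyclin B1, ran from 6.81 through 7.55 to 8.39 and from 7.03 through 7.65 to 8.01, again with both ends on normal protein. The Ccnb1 difference was 0.02 ± 0.22 (SE). Ccna2, cyclin A2, which acts from S phase into mitosis, ran from 7.89 through 8.52 to 8.78 on normal and from 7.77 through 8.15 to 8.52 on high protein. In all, 3 normal protein arrays lay above every high protein array. The Ccna2 difference was -0.27 ± 0.18 (SE) with an unadjusted limma p of 0.17, and the second tested probe of Ccna2 gave -0.25. Within slides 1, 2 and 3 the Ccna2 difference was -0.57, 0.03 and -0.26. Cdc25b, the phosphatase that activates Cdk1, ran from 7.01 through 7.31 to 7.57 on normal and from 7.30 through 7.45 to 7.88 on high protein. Its difference was 0.19 ± 0.12 (SE) with an unadjusted limma p of 0.14, the highest difference among the 40 genes. Without high protein replicate 5, which stood at 7.88, the Cdc25b difference was 0.11.

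Nusap1, a protein that binds microtubules and stabilises the spindle, had the largest difference in size among the 40 with spots of a probe averaged, and its interval depended on how 1 spot was treated. Its probe has 10 spots an array. In normal protein replicate 6, 1 of them was saturated in 63% of its pixels and not flagged good, and stood at 15.5 where the next highest stood at 7.63. No other spot among the 8 tested cell cycle genes with several spots lay over 2 log2 units from its probe's median. With spots averaged, Nusap1 ran from 7.97 through 8.26 to 8.67 on normal protein and from 7.67 through 7.91 to 8.30 on high protein. The Nusap1 difference was then -0.33 ± 0.15 (SE), with a 95% interval of -0.66 to -0.01, an unadjusted limma p of 0.045 and an adjusted p of 0.73. With the median of the spots, an alternative added after the data were seen, the level of normal protein replicate 6 was 7.53 in place of 8.30, below every high protein array. Nusap1 then ran from 7.53 through 8.12 to 8.78 on normal and from 7.68 through 7.92 to 8.32 on high protein. The difference of Nusap1 was -0.20 ± 0.19 (SE), with a 95% interval of -0.62 to 0.21, an unadjusted limma p of 0.31 and an adjusted p of 0.82. Within slides 1, 2 and 3 the Nusap1 difference was -0.28, -0.28 and -0.45 with the mean of the spots and -0.22, 0.15 and -0.53 with the median. Without normal protein replicate 6 it was -0.33. With the mean of the spots, Nusap1 was the 1 mitotic gene of 24 with an unadjusted p under 0.05, where 2.98% of all genes had such a p with lower values on high protein. Of the 14 S phase genes 0 had one.

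Of the markers and machinery of dividing cells, Mki67, the antigen used to stain cycling cells, ran from 8.49 through 9.13 to 9.68 on normal and from 8.68 through 9.05 to 9.38 on high protein. The Mki67 difference was -0.10 ± 0.19 (SE), and its other tested probes gave -0.05 and -0.02. The 95% interval of -0.51 to 0.32 for Mki67 holds 0. Top2a, topoisomerase II alpha, which untangles chromosomes, ran from 7.66 through 8.40 to 8.91 and from 7.71 through 8.30 to 8.69, with a difference of -0.11 ± 0.21 (SE). For Mki67 and Top2a alike the highest array was normal protein replicate 1 and the lowest normal protein replicate 6. Pttg1, securin, which holds back separase until anaphase, ran from 7.95 through 9.03 to 9.50 and from 8.70 through 8.92 to 9.45. Its difference was 0.02 ± 0.23 (SE). Cdca3, a trigger of mitotic entry, ran from 8.17 through 9.21 to 9.60 and from 8.61 through 9.11 to 9.49, with a difference of 0.02 ± 0.24 (SE). Kif2c, a kinesin that takes apart microtubule ends, ran from 6.37 through 6.72 to 7.10 and from 6.61 through 6.87 to 7.02. It was well measured on 8 arrays and differed by 0.10 ± 0.13 (SE), and by 0.03 on its second tested probe. The remaining mitotic genes, among them the checkpoint kinases Bub1 and Bub1b, Plk1, Aurka and the kinesins Kif11, Kif20a and Kif23, lay between -0.19 and 0.05. Stmn1, which destabilises microtubules, differed by 0.05 ± 0.20 (SE), and Hmgb2, a chromatin protein, by -0.16 ± 0.20 (SE), or -0.21 on its second tested probe.

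**Figure D2:**
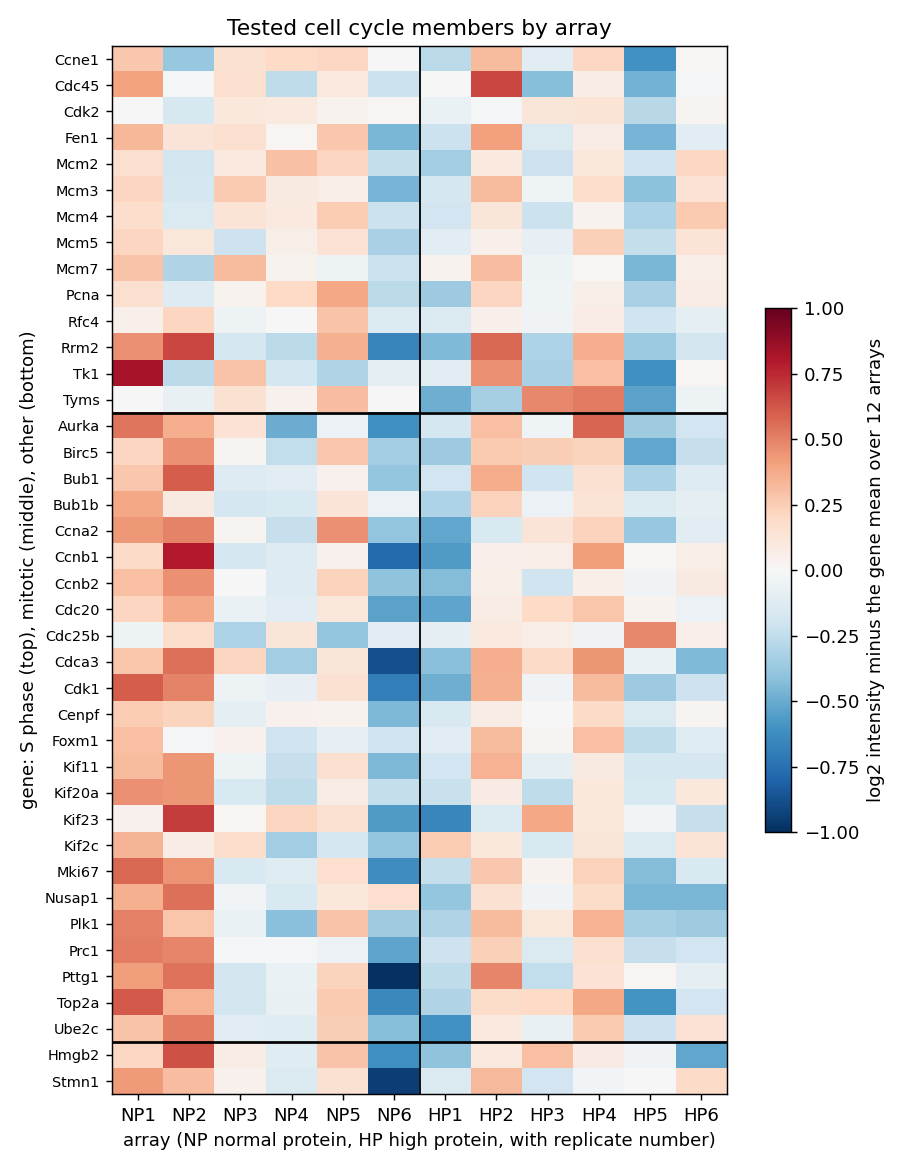
Level of each tested cell cycle gene on each array as log2 intensity minus the gene's mean over 12 arrays, with S phase genes on top, mitotic genes in the middle, and Hmgb2 and Stmn1 at the bottom. Mitotic genes are high together in normal protein replicates 1 and 2 and low together in normal protein replicate 6, and S phase genes are low in high protein replicate 5. Nusap1 is shown with its spots averaged, which places it above its mean in normal protein replicate 6.

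The 8 genes that could not be tested include parts of the same machinery. Aurkb, Birc5's partner Cdca8, Cenpa, Cdc6, Gins2 and Rrm1 had good spots on 0 arrays, Tpx2 on 2 and Mcm6 on 5. For these 8 no statement on diet is made.

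Other genes of the cycle were taken from lists of their pathway. Of 19 tested further S phase genes (37 on the array) limma called 0, with 5 differences above 0, 14 below and a median of -0.07. Their smallest p-values belonged to Dscc1, which helps load Pcna, at -0.24 ± 0.15 (SE), and to Prim1, a primase subunit, at -0.25 ± 0.18 (SE). Of 33 tested further mitotic genes (52 on the array) 0 were called, with 10 differences above 0, 23 below and a median of -0.05. Bub3, a checkpoint protein, was at -0.20 ± 0.11 (SE) and Cks1b, a Cdk subunit, at -0.14 ± 0.09 (SE).

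Genes that control entry from G1 were spread about evenly on both sides of 0. Of 25 tested (29 on the array) 0 were called, 13 were above 0 and 12 below, and the median was 0.01. An unadjusted p under 0.05 was found for 2 higher and 2 lower genes, where 3.66% and 2.98% of all genes were so. Cdkn1c, the Cdk inhibitor p57, ran from 7.81 to 8.69 on normal protein and from 7.58 to 7.86 on high protein. Of the normal arrays only replicate 1 lay within the high protein range. The Cdkn1c mean was 7.76 ± 0.11 (SD, n = 6) on high and 8.24 ± 0.30 (SD, n = 6) on normal protein, a difference of -0.47 ± 0.12 (SE). Its unadjusted limma p was 0.0021 and its adjusted p 0.68. Cdkn1b, the Cdk inhibitor p27, was at 8.88 ± 0.16 (SD, n = 6) on high and 8.61 ± 0.18 (SD, n = 6) on normal protein, with an adjusted limma p of 0.70. Ccnd1, cyclin D1, which starts the cycle with Cdk4 and Cdk6, was at 9.21 ± 0.16 (SD, n = 6) against 8.96 ± 0.16 (SD, n = 6). Rb1, the retinoblastoma protein that holds E2F in check, differed by -0.35 ± 0.15 (SE). Ccnd1 and Rb1 are named after their values were seen. The adjusted limma p was 0.70 for Ccnd1 and 0.73 for Rb1, so neither passed. Of 8 tested crypt stem and progenitor genes (16 on the array) 0 were called. Lgr5, Axin2, Sox9 and Olfm4 were not among the 8. Prom1 was at -0.40 ± 0.17 (SE) and Slc12a2 at 0.29 ± 0.17 (SE), both with an adjusted limma p of 0.73.

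The spread between arrays was larger than the diet difference, and it was shared. The median SD over the 12 arrays was 0.320 for mitotic genes and 0.249 for S phase genes, against 0.202 for all tested genes. From lowest to highest array a mitotic gene spanned 1.48 to 2.97-fold, the widest being Ccnb1. An S phase gene spanned 1.33 to 2.72-fold, from Cdk2 to Tk1. Of the 24 mitotic genes, 12 were highest in normal protein replicate 2 and 9 in normal protein replicate 1, and 13 were lowest in normal protein replicate 6. The arrays at both ends thus had the same diet. Nusap1 enters these counts, the group means and the correlations between genes with its spots averaged, the saturated spot included. With the median of its spots its lowest array was also normal protein replicate 6, at 7.53 in place of 8.30. S phase genes had another low array, with 9 of 14 lowest in high protein replicate 5. They had no shared high array, as the most in any array was 4, in high protein replicate 2. The mean mitotic level by array, in order of replicates 1 to 6, was 8.13, 8.20, 7.73, 7.63, 7.89 and 7.33 on normal protein. On high protein it was 7.48, 7.98, 7.79, 8.01, 7.59 and 7.67. The mean S phase level was 8.20, 7.90, 8.05, 7.98, 8.11 and 7.71 on normal protein. It was 7.74, 8.18, 7.85, 8.12, 7.55 and 7.98 on high protein. Normal protein replicate 2 was highest for mitosis and in the middle for S phase, while normal protein replicate 1 was high in both.

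**Figure D3:**
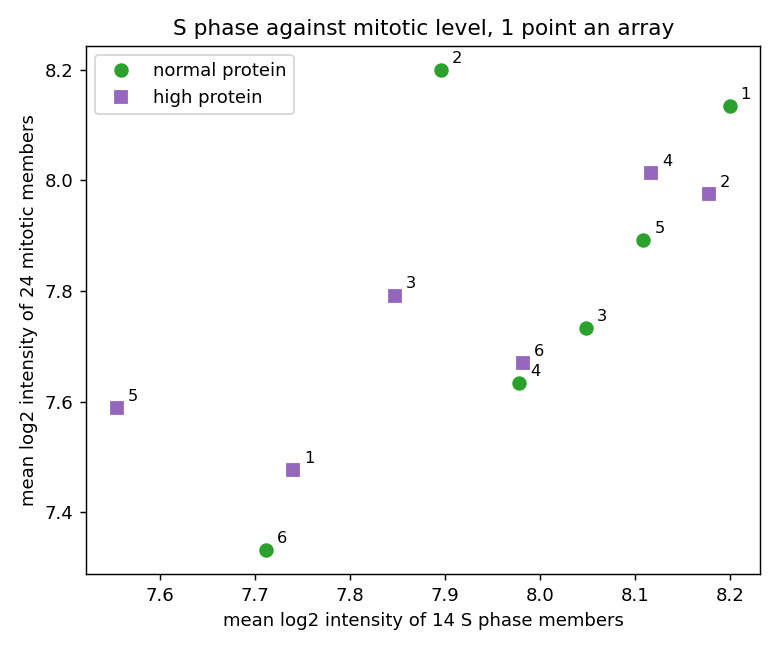
Mean log2 intensity of 14 S phase genes (x axis) and 24 mitotic genes (y axis), 1 point an array, with replicate numbers and diet by colour and shape. Normal protein replicate 6 is lowest in mitotic level at 7.33, and high protein replicate 5 is lowest in S phase level at 7.55.

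Over the 12 arrays with diet means removed, the median Pearson r was 0.762 among the 276 pairs of mitotic genes and 0.577 among the 91 pairs of S phase genes. Across the groups, the 336 pairs of an S phase and a mitotic gene had a median of 0.428, and 3412578 pairs from an evenly spaced subset of the tested genes a median of 0.000770. These points share their array and its normalisation, so the values describe these 12 arrays and carry no p. Mitotic genes were thus most alike, and each group was more alike within than with the other. Without normal protein replicate 6 the medians were 0.719 for mitotic pairs and 0.317 across the groups. The group means, each of standardised levels, had a Pearson r of 0.645 and a Spearman rho of 0.692 with diet left in. Without normal protein replicate 6 and high protein replicate 5, the arrays farthest from the S phase median, r was 0.503 over 10 arrays.

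Some genes followed their group closely and a few did not. Against the mean of the other mitotic genes, over 12 arrays with diet left in, r was 0.982 for Cdk1, 0.961 for Mki67, 0.944 for Kif11 and 0.935 for Prc1, which bundles the midzone microtubules. It was -0.038 for Cdc25b and 0.463 for Kif2c. For Nusap1 it was 0.661 with the mean of its spots and 0.934 with the median. Cdc25b, alone among the 24, also ran against the S phase mean, at -0.504. Against the mean of the other S phase genes, r was 0.900 for Mcm3, 0.891 for Fen1, 0.876 for Pcna and 0.860 for Ccne1. It was lowest for Tyms at 0.419 and for Cdk2 at 0.541. Rrm2, Rfc4 and Mcm5, grouped with S phase by function, lay closer to the mitotic mean. Rrm2 had an r of 0.949 with the mitotic genes and 0.626 with the other S phase genes, Rfc4 had 0.752 and 0.594, and the helicase subunit Mcm5 had 0.760 and 0.705. Hmgb2 and Stmn1 also lay closer to the mitotic mean, at 0.821 and 0.786, than to the S phase mean, at 0.348 and 0.553. These differences between correlations were not tested.

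Genes outside the list ran along with the group of their own phase. The further mitotic genes had a median r of 0.765 with the mitotic mean and 0.468 with the S phase mean, with diet means removed. The further S phase genes had 0.407 with the mitotic and 0.760 with the S phase mean. Over all tested genes the medians were 0.0165 and 0.0356, and 6.15% had an r over 0.5 with the mitotic mean. The G1 genes had medians of 0.0625 and 0.101, and 0 of 25 had an r over 0.5 with either mean. The 8 tested crypt stem and progenitor genes, without Lgr5, had 0.187 and 0.210. Of 8839 named genes outside the list, those most like the mitotic mean over the 12 arrays, with diet left in, were Plk4 (r = 0.947), Spc24-ps1 (0.929), Ckap2 (0.921), Ttk (0.913), Nuf2 (0.907) and Knstrn (0.904). Mis18a, Ect2, Tacc3 and Anln followed, at 0.883 to 0.894. Plk4 duplicates centrioles, Ttk is the checkpoint kinase Mps1, and Nuf2 is part of the kinetochore. Among those most like the S phase mean were Gins1 (0.970), a subunit of the helicase complex, Rpa2 (0.913), which binds single-stranded DNA, Shcbp1 (0.877) and Dctpp1 (0.854). Haus4, Gmnn, Tubb4b and Atp5mc1 had 0.829 to 0.848. At the other end were Tmem108 (-0.807), Tnpo2 (-0.794), Mfap5 (-0.791), Nid1 (-0.790) and Brf1 (-0.773) for the mitotic mean. Nid1 and Mfap5 encode proteins of the extracellular matrix. Plk4, Shcbp1 and Tmem108 had low mean levels, 6.603, 6.565 and 6.592, though each passed the filter for testing. Aurkb, with good spots on 0 arrays, had a mean of 6.19. For the S phase mean, Tcf7 (-0.784) and Actc1 (-0.780) were among the lowest.

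**Figure D4:**
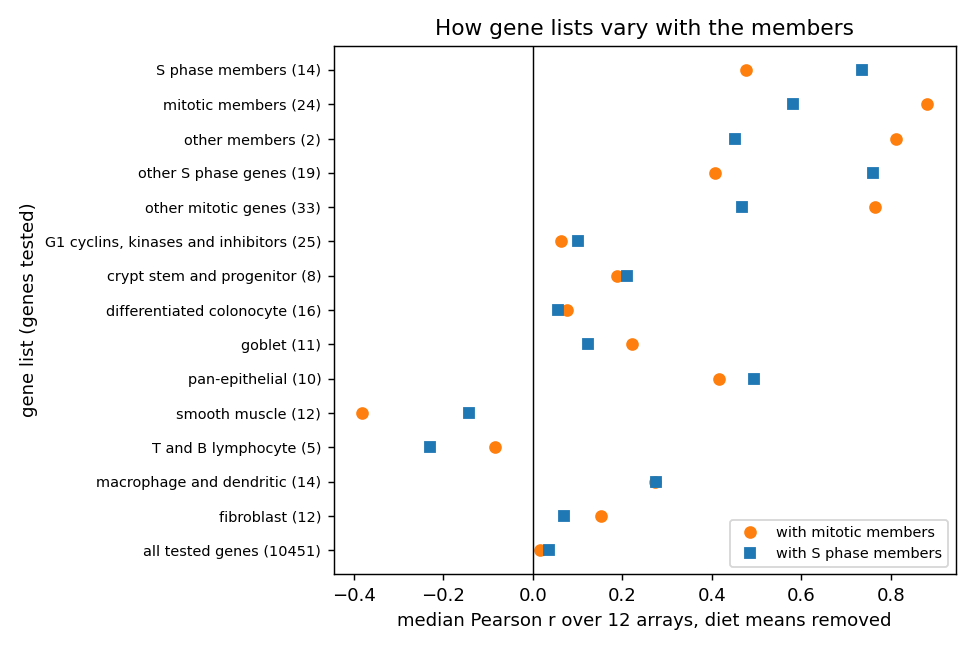
Median Pearson r over 12 arrays, with diet means removed, of the genes of each list with the mean of the mitotic genes (circles) and of the S phase genes (squares), the number of tested genes in brackets. Further mitotic genes lie at 0.765 with the mitotic mean, G1 genes at 0.0625 and smooth muscle genes at -0.381.

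Marker lists of tissue layers and cell types differed in how they ran with the mitotic level. All 10 of 10 pan-epithelial markers had an r above 0 with the mitotic mean, with a median of 0.416, and their median with the S phase mean was 0.493. Over all tested genes 51.8% had an r above 0 with the mitotic mean, and 12 of 14 macrophage and dendritic markers did. Of 12 smooth muscle markers 0 had an r above 0 with the mitotic mean, and their median was -0.381. In normal protein replicate 6, the lowest array for mitotic genes, the pan-epithelial mean was 11.48, and in high protein replicate 3 it was 11.46, the lowest values of the 12. High protein replicate 3 had a mitotic mean of 7.79, near the middle. In the arrays with the highest mitotic means, normal protein replicates 1 and 2, the pan-epithelial mean was 12.04 and 12.05. These were mid-range values. The highest pan-epithelial mean, 12.35, was that of normal protein replicate 3, with a mitotic mean of 7.73. Goblet markers had a median r of 0.222 with the mitotic mean, differentiated colonocyte markers 0.0755, lymphocyte markers -0.0855, macrophage and dendritic markers 0.273 and fibroblast markers 0.153. The part of tissue makeup in the shared spread of the cell cycle genes was not tested. With the pan-epithelial mean as a covariate, the median pairwise r was 0.734 among mitotic genes, 0.508 among S phase genes and 0.291 across the groups. That covariate was added after the data were seen.

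Position along the colon was read from homeobox genes, as a score that subtracts the average log2 level of Hoxb6 and Hoxb7 from that of Hoxb13. Hoxb13 is known to mark the distal colon and Hoxb6 and Hoxb7 more proximal gut. In normal protein replicates 1 to 6 the score was 4.87, 5.42, 1.71, -1.06, 2.40 and -4.44. It was 5.17, 5.57, -4.72, -3.15, 5.20 and 5.44 in high protein replicates 1 to 6. The arrays fall into clusters, 6 with a score near 5, 3 well below 0 and 3 normal protein arrays in between, so no correlation with the score is given. Scores in between rest partly on weak signals. In normal protein replicate 4 Hoxb13 was at 5.83, Hoxb6 at 6.90 and Hoxb7 at 6.87, where Aurkb, with good spots on 0 arrays, had a mean of 6.19. A slope per unit of the score was fitted with diet in the model. Of 14 S phase and 24 mitotic genes, limma called 0 and 0 with position, where 5.94% of all tested genes were called. Over all tested genes 356 (3.41%) were called higher and 265 (2.54%) lower with the score. Of the 24 mitotic slopes, 22 were above 0, with a median of 0.02 per unit, where 48.1% of all slopes were below 0. Without normal protein replicate 6, 11 of the 24 were above 0. With the pan-epithelial mean as a covariate 12 were above 0.

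Tyms, Pttg1, Kif2c and Stmn1 had an unadjusted position p under 0.05, as did 20.0% of all genes. Tyms, with a slope of -0.06 ± 0.02 (SE), had an unadjusted limma p of 0.0075 and an adjusted p of 0.087. By replicate 1 to 6 the Tyms level was 7.25, 7.18, 7.40, 7.30, 7.56 and 7.25 with normal protein, and with high protein 6.76, 6.92, 7.73, 7.77, 6.72 and 7.20. The highest Tyms levels were those of high protein replicates 3 and 4, with scores of -4.72 and -3.15. The lowest were those of high protein replicates 1, 2 and 5, with scores above 5. High protein replicate 6, with a score of 5.44, was at 7.20. The normal protein arrays did not show this order. Tyms was at 7.25 both in normal protein replicate 6, with a score of -4.44, and in normal protein replicate 1, with a score of 4.87. Without normal protein replicate 6 the Tyms slope was -0.08 and passed the test, with an adjusted limma p of 0.0185. That array is the only normal protein array with a score well below 0. Without it the low end of the score holds high protein arrays alone, so this fit cannot show the slope in both diets. With the pan-epithelial covariate and all 12 arrays the Tyms slope passed at an adjusted limma p of 0.0348. Cdk2 had a slope of -0.02 ± 0.01 (SE) and an adjusted limma p of 0.28. Pttg1 had a slope of 0.06 ± 0.02 (SE) with an adjusted limma p of 0.18, and without normal protein replicate 6, its lowest array, 0.03. Kif2c had 0.03 ± 0.01 (SE) with an adjusted p of 0.23, and Stmn1 0.06 ± 0.02 (SE) with an adjusted p of 0.073. Tyms alone of the 14 S phase genes had an unadjusted p under 0.05.

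**Figure D5:**
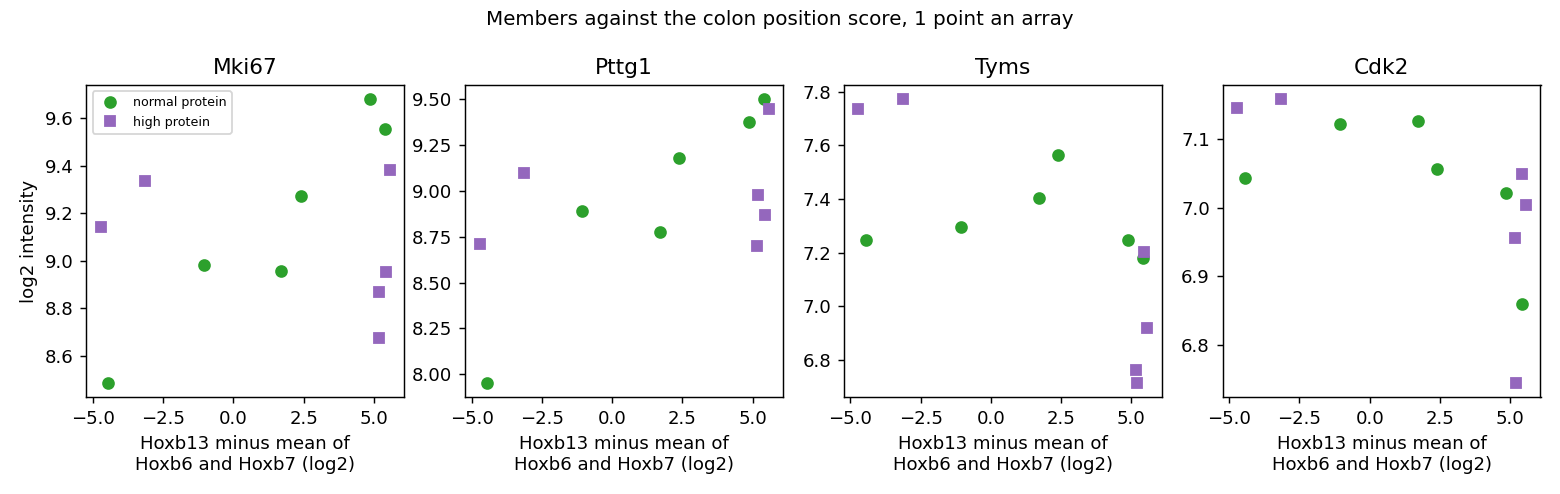
Log2 intensity of Mki67, Pttg1, Tyms and Cdk2 (y axes) against the position score in log2 units, in which Hoxb6 and Hoxb7 are averaged and subtracted from Hoxb13 (x axes), 1 point an array, diets by colour and shape. Tyms is highest, at 7.73 and 7.77, in high protein arrays with scores of -4.72 and -3.15, and is at 7.25 in the normal protein array with a score of -4.44.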

How the data were processed

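RNA of 12 rat colon samples, 6 a diet, was measured on 12 single-colour arrays. Per the file headers, GenePix Pro 6.1.0.4 read the spots at 532 nm, and what was deposited are pixel intensities without normalisation, with flags of 100 for good and -50 for not found spots. The series value table is, per the labels, on the log2 scale, and the submitters' processing notes name RMA; how it was filtered, corrected for background or centred is not stated there. Its column medians ran from 4.36 to 4.45. Its identifiers as given did not match the scanner values (r of 0.0227 to 0.0377) and matched after a move by 1 row (0.977 to 0.991), so it served only as an alternative with the identifiers so moved.

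From the deposited intensities, the mean pixel and median local background were corrected with normexp (offset 50), controls were dropped, and the arrays were quantile normalised together as log2 values. Repeat spots were averaged by probe. Testing needed a share of good spots of 0.5 or more on 6 or more of the 12 arrays, and the brightest tested probe stood for its gene. Of 42877 gene spots with 30367 probes, 13204 probes were tested; 1467 without a name were dropped, leaving 10451 genes. Names came from RefSeq accessions of GRCr8 for 18355 probes and otherwise from the array. The listed genes had 63 probes, 46 of them tested. Of these, 1 probe, that of Nusap1, had a saturated spot, on 1 array.

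Diets, and position with diet in the model, were compared with limma 3.58.1 (lmFit and eBayes) in R 4.3.3, adjusted by Benjamini-Hochberg over all genes at 0.05. The fit was tested on simulated data. The genes and lists were chosen with earlier results of these data known, so list values are descriptions. Values in full are given for Mki67, Top2a, Ccnb1, Cdk1, Pcna and Mcm2 and, in the S phase and mitotic groups, for the 3 genes of smallest diet p, the 3 of largest SD and the 2 of smallest position p. In each other cycle list the 2 genes of smallest diet p are named, and beside each group mean the 10 most and 5 least like genes, of which some are not reported here. Alternatives were the normalisation, background, offset, filters, probe rule, slide and replicate blocks, single slides, a position covariate, the value table the median of a probe's spots and each array left out.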

Additional observations from a re-analysis of the deposited data

Results flagged for a closer look

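Among the high protein arrays, Cdc25b stood apart in replicate 5, at 7.878 against 7.491 in the next array and 7.296 in the lowest. The gap took up 0.665 of the range of the 6 arrays, above the 95% Dixon limit for a group of 6. Of 84 such groups of 6 arrays this was the 1 set apart, where chance alone would set apart about 1 in 20. In the same array 9 of 14 S phase genes had their lowest level.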

How the results depend on the processing

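No S phase or mitotic gene was called between diets under any alternative run, and over all genes 0 were called except 1 within slide 3. The median diet difference was 0.11 for S phase and 0.26 for mitotic genes within slide 2. With single arrays left out it ran from -0.15 to -0.04 for S phase and from -0.17 to 0.001 for mitotic genes. The mitotic value was lowest without normal protein replicate 6 and highest without normal protein replicate 1. Under median scaling the medians were -0.002 and -0.01, where the median of all genes moved from 0.005 to 0.10.

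Directions of single genes turned as follows. With 75th percentile scaling Ccnb1 was at -0.042. With median scaling Mki67 was at 0.049, Top2a 0.0068, Cdk1 0.0056, Pcna 0.020, Rrm2 0.038 and Cdk2 0.0089. Within slide 1 Ccnb1 was at -0.27, Cdca3 -0.27, Pttg1 -0.0017 and Kif2c -0.077. Within slide 2 Mki67 was at 0.26, Top2a 0.29, Cdk1 0.33, Pcna 0.0077, Mcm2 0.17, Fen1 0.077, Rrm2 0.24, Tk1 0.36, Tyms 0.082, Cdk2 0.053 and Ccna2 0.030. Within slide 3 Ccnb1 was at -0.29, Cdca3 -0.040, Pttg1 -0.35 and Kif2c -0.016. With position as a covariate Ccnb1 was at -0.0028 and Pttg1 at -0.026. With single arrays left out, Mki67 ran from -0.23 to 0.0087, Top2a from -0.24 to 0.0064, Ccnb1 from -0.14 to 0.18, Tk1 from -0.19 to 0.063, Cdk2 from -0.065 to 0.024, Cdca3 from -0.15 to 0.14 and Pttg1 from -0.18 to 0.13. The cause was not tested. With the median of the spots of a probe in place of the mean, Nusap1 was at -0.20, with a 95% interval that holds 0. Under the other alternatives run Nusap1 lay between -0.45 and -0.24 and Cdc25b lay between 0.11 and 0.33.

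Genes called with position numbered 621, and 365 with a slide block, 257 with a replicate block, 391 with the pan-epithelial covariate, 392 in the value table, and 337 (without high protein replicate 3) to 598 with arrays left out. S phase genes called with position numbered 1, Tyms, with the pan-epithelial covariate, and 0 to 1 with arrays left out. Mitotic slopes above 0 numbered 14 of 16 where all 12 arrays had to be good, 12 with the pan-epithelial covariate, and 11 to 24 with arrays left out. The median r of mitotic pairs was 0.828 with slide means removed. With arrays left out it ran from 0.719 to 0.791, that of S phase pairs from 0.524 to 0.679 and that across groups from 0.317 to 0.614. Replicate numbers were not taken as pairs. Same-numbered arrays correlated at -0.11 to 0.396, and 2 of 6 correlated best with their own number, which cannot settle whether the samples were paired. The replicate block, under which 0 genes were called between diets, is given here only. Position within single slides was not run. The number of arrays limits these data, as many smaller differences lie inside the intervals. Of 40 intervals 35 (87.5%) lay within 1.5-fold, where 84.7% of those of all tested genes did.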
